A study of Mus musculus with 3 samples.

Results

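The genes described here are 6 caspases (Casp1, Casp4, Casp6, Casp8, Casp9 and Casp14), the adaptor gene Pycard, which encodes ASC, and the pore gene Gsdmd, which encodes gasdermin D. They were chosen by name, with their counts in these libraries already known, and all 8 were among the 21760 genes of the table. RNA of mouse cornea, the clear window over the iris, was sequenced as 3 libraries, 1 for each group. The sham library came from mice that had an incision in the region of the lacrimal glands with the glands untouched, and the excision library from mice whose tear-producing lacrimal gland had been removed, which is used to model dry eye. The third library came from mice that received PNU-282987, a compound that activates the α7 nicotinic receptor for acetylcholine, as eyedrops 3 times a day. The labels do not say whether the PNU-282987 mice had also lost the gland, and they give no strain, age, sampling time or pooling of corneas. The question behind the design is the role of that receptor in dry eye. Where 3 values follow each other, the first is sham, the second excision and the last PNU-282987.

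Caspases are proteases that cut their targets after aspartate. In an inflammasome, a sensor protein gathers ASC, which recruits pro-caspase-1. Active caspase-1 matures interleukin-1β and interleukin-18 and cuts gasdermin D, whose freed N-terminal part forms pores in the plasma membrane, a lytic death called pyroptosis. Caspase-4 of the mouse, also called caspase-11, binds bacterial lipopolysaccharide in the cytosol and cuts gasdermin D without ASC. Caspase-8 starts apoptosis at death receptors, caspase-9 starts it at the apoptosome after mitochondrial release of cytochrome c, and caspase-6 is counted among the executioners. Caspase-14 belongs to stratified, cornifying epithelium, where it takes part in processing filaggrin, and is not a death protease.

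The groups had no replicates, so the values compare libraries and not conditions, differences between animals are not measured, and no p-value was computed. Total counts lay between 37692972 and 39616004. Levels are given as CPM, the count per 1000000 counts of library size after TMM scaling, which corrects for differences in library composition, and their intervals are exact 95% Poisson intervals. Ratios carry exact 95% binomial intervals, and both kinds cover counting error only. A gene was called higher or lower when scaled counts differed 2-fold or more and 1 lay outside the interval. Corneal epithelial markers, led by Krt12 and Krt5, summed to 95900, 92500 and 108000 CPM, and all 14 listed genes had counts in every library. Among them, Krt15 (65935, 137853 and 241041 counts) was called higher than sham in excision (2.2-fold) and in PNU-282987 (3.68-fold). The other 13 were not called in these comparisons, where 4.01% and 2.58% of all measured genes were called higher. In bulk tissue, fewer cells of a type and less RNA per cell cannot be told apart.

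The inflammatory caspase genes Casp1 and Casp4 were the members that differed by more than 2-fold, and they lie next to each other on mouse chromosome 9. The 250 bases before their RefSeq start sites (build GRCm38.p6) are shown beside those of the apoptotic gene Casp9, whose level was similar in the 3 libraries. Casp1 is shown at chr9:5298267-5298516 on the + strand, Casp4 at chr9:5308599-5308848 on the + strand and Casp9 at chr4:141793362-141793611 on the + strand, each 5′ to 3′. Capitals mark matches, on either strand, to any of 6 motifs that were searched.
Casp1: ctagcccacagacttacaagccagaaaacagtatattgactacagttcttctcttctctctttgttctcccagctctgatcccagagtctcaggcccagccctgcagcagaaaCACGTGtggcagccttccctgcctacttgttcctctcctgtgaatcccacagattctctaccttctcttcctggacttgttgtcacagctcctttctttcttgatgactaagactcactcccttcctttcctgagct
Casp4: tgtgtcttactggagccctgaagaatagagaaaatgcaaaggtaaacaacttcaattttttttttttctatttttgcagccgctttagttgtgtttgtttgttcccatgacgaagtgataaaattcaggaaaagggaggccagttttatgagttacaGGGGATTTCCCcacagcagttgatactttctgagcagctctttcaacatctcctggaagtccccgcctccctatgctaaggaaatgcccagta
Casp9: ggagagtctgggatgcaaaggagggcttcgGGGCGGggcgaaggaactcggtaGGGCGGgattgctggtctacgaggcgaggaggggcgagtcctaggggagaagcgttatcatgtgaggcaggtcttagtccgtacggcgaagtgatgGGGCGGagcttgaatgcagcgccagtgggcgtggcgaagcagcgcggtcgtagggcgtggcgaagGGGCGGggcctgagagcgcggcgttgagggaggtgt
The capitals in Casp1 are the palindromic E-box CACGTG, which 6.02% of all 32851 windows of this length hold. Those in Casp4 are overlapping matches to the consensus of NF-kB, a factor of inflammatory signalling, present in 3.9% of windows. In Casp9 they are 4 GC boxes (GGGCGG), present in 32.7% of windows. Neither the core of the interferon-stimulated response element (2.98% of windows) nor the STAT motif TTCNNNGAA (7.02%) was found in the window of any of the 7 members with a RefSeq promoter, and the AP-1 motif (4.46%) was not found either. GC content was 49.2% for Casp1, 41.6% for Casp4 and 66.0% for Casp9 against a median of 52.4% over all windows. A match is only a description of the letters, the search covers these 250 bases alone, and the motifs were chosen after the sequences had been seen.

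Casp1 (gene ID 12362), the inflammasome protease, was close to absent from the sham library and was detected in both others. The sham library held 3 counts, excision 99 and the PNU-282987 library 196, or 0.0768 CPM (0.0158 to 0.224), 2.67 CPM (2.17 to 3.25) and 5.05 CPM (4.37 to 5.81). The sham level stood apart from the other 2, whose intervals did not overlap each other either, and PNU-282987 held the highest value. Casp1 was 34.7-fold higher in excision than in sham (95% interval 11.5 to 171) and 65.7-fold higher in PNU-282987 than in sham (22.2 to 321). These intervals are wide because the sham value rests on 3 counts. PNU-282987 exceeded excision 1.89-fold (1.48 to 2.43), which is under the 2-fold threshold.

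Casp4 (gene ID 12363), the lipopolysaccharide-binding caspase, had the same order of libraries at lower counts. The sham library held 3 counts, excision 19 and the PNU-282987 library 32, or 0.0768, 0.512 and 0.824 CPM. Sham was again the low library, and the intervals of excision (0.308 to 0.799 CPM) and PNU-282987 (0.564 to 1.16 CPM) overlapped. Casp4 was 6.66-fold higher in excision than in sham (1.96 to 35.2) and 10.7-fold higher in PNU-282987 than in sham (3.36 to 54.7), and PNU-282987 was not distinguishable from excision at this depth (1.61-fold, 0.885 to 3.01). It reached the minimum of 20 counts in PNU-282987 alone, and Casp1 reached it in excision and PNU-282987, so both genes passed the minimum only through libraries in which they were high. The number of Casp1 counts per Casp4 count, which does not depend on scaling, was 5.21 in excision (3.17 to 9.02) and 6.12 in PNU-282987 (4.2 to 9.2), and in sham, with 3 counts of each, it could lie anywhere from 0.134 to 7.47. The longest stretch that annotated transcripts of Casp1 and Casp4 share is 12 bases, and that of Casp4 and its neighbour Casp12 is 21 bases.

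**Figure D1:**
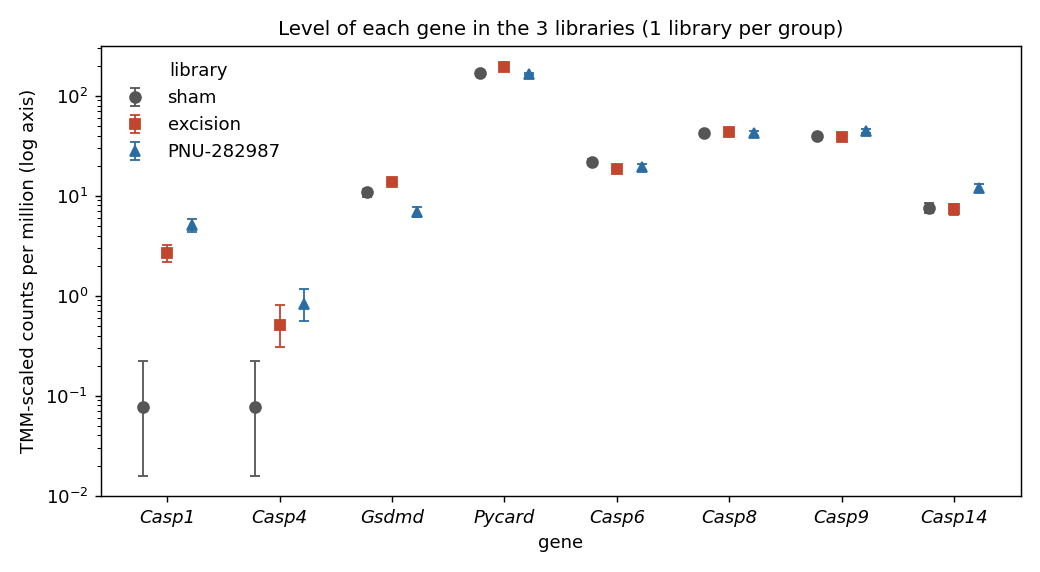
Level of each of the 8 genes in the sham, excision and PNU-282987 libraries in TMM-scaled CPM on a log axis, with 1 point per library and bars for the exact 95% Poisson interval. Casp1 and Casp4 lie at 0.0768 CPM in sham and higher in the other 2 libraries, Pycard lies above 100 CPM in all 3, and for Casp6, Casp8 and Casp9 the points of the 3 libraries are close together.

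Pycard (gene ID 66824), the gene of the adaptor ASC that recruits pro-caspase-1, was the most abundant member, and its libraries were close together. The sham library held 6544 counts, excision 7155 and the PNU-282987 library 6450, or 168, 193 and 166 CPM. Excision was the highest and the other 2 overlapped. Excision exceeded sham 1.15-fold (1.11 to 1.19), a difference beyond counting error but far under 2-fold, and PNU-282987 against sham was 0.991-fold (0.958 to 1.03). Both ratios depended on scaling. With libraries scaled to total counts, excision against sham became 1.09-fold (1.06 to 1.13) and PNU-282987 against sham 0.938-fold (0.906 to 0.971). With scaling to the corneal epithelium list they became 1.19-fold (1.15 to 1.23) and 0.879-fold (0.85 to 0.91). PNU-282987 against excision was 0.862-fold (0.833 to 0.891), and 0.737-fold (0.712 to 0.762) with the epithelium list. Counts of Casp1 therefore came to 0.0458%, 1.38% and 3.04% of those of Pycard.

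Gsdmd (gene ID 69146), the pore-forming target of both inflammatory caspases, did not follow Casp1 in the PNU-282987 library. The sham library held 420 counts, excision 514 and the PNU-282987 library 269, or 10.8 CPM (9.75 to 11.8), 13.8 CPM (12.7 to 15.1) and 6.93 CPM (6.12 to 7.81). The 3 intervals did not overlap, with excision the highest and PNU-282987 the lowest. Excision was 1.29-fold above sham (1.13 to 1.47) and PNU-282987 was 1.55-fold below sham (1.33 to 1.82). PNU-282987 was 2.0-fold below excision (1.72 to 2.33), just short of the threshold before rounding, and with libraries scaled to total counts or to the corneal epithelium list it passed it. Relative to Pycard in the same library, Gsdmd stood at 6.42%, 7.18% and 4.17%.

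With TMM scaling the apoptotic caspases differed by less than 1.5-fold between the 3 libraries. Casp8 (gene ID 12370), the initiator at death receptors, had 1669, 1613 and 1630 counts, and all 3 ratios had intervals that included 1, with bounds between 0.901 and 1.09. Casp9 (gene ID 12371), the initiator at the apoptosome, had 1535, 1447 and 1734 counts. Its PNU-282987 library exceeded sham 1.14-fold (1.06 to 1.22) and excision 1.15-fold (1.07 to 1.23), and excision against sham was 0.992-fold (0.922 to 1.07). When libraries were scaled to the corneal epithelium list, these Casp9 ratios became 1.01-fold for PNU-282987 against sham and 0.979-fold for PNU-282987 against excision. The same scaling took Casp8 off level, to 0.871-fold (0.813 to 0.934) against sham and 0.826-fold (0.77 to 0.885) against excision. Casp6 (gene ID 12368), the executioner, had 861, 689 and 750 counts and was highest in sham. Excision was 1.19-fold below sham (1.07 to 1.31) and PNU-282987 was 1.14-fold below it (1.03 to 1.26), a ratio of 0.876 that became 0.777 with the epithelium scaling. Transcripts of the gene Cela2a overlap Casp9 exons on the opposite strand and had 0, 2 and 0 counts.

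Casp14 (gene ID 12365), the caspase of cornifying epithelium, was highest in the PNU-282987 library, by less than 2-fold. The sham library held 295 counts, excision 271 and the PNU-282987 library 465, or 7.55, 7.3 and 12 CPM. Sham and excision overlapped (0.966-fold, 0.816 to 1.14), and PNU-282987 lay above both. It was 1.59-fold above sham (1.37 to 1.84) and 1.64-fold above excision (1.41 to 1.91). Per count of Casp8, Casp14 had 0.177 counts in sham (0.156 to 0.2) and 0.168 in excision (0.147 to 0.191). In PNU-282987 it had 0.285 (0.257 to 0.316). These values need no scaling between libraries but take Casp8 as their reference. With scaling to the corneal epithelium list, Casp14 in PNU-282987 was 1.4-fold above excision (1.2 to 1.63).

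**Figure D2:**
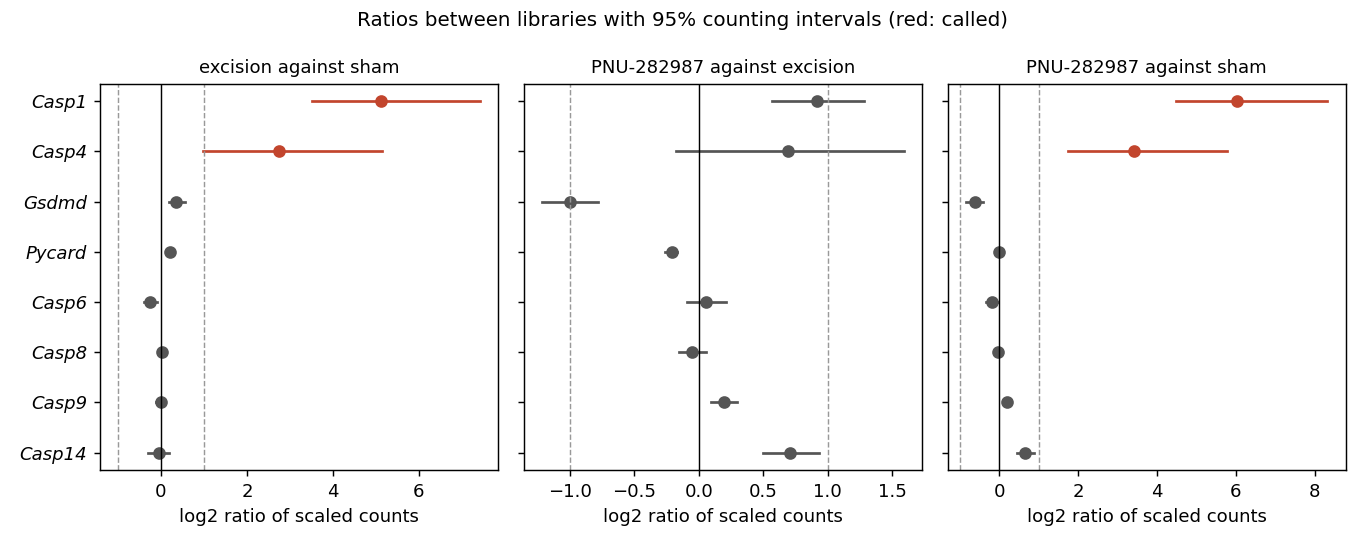
Log2 ratio of scaled counts for each of the 8 genes in the 3 comparisons, with points for the ratio, bars for the 95% counting interval, dashed lines at 2-fold in either direction and red for called genes; the panels have different horizontal ranges. Casp1 and Casp4 are red in both comparisons with sham, and no gene is red between PNU-282987 and excision, where Gsdmd lies on the lower dashed line.

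In sum over the members, 2 of 8 (Casp1 and Casp4) were called higher in excision than in sham and 0 lower, where 4.01% of all 14180 measured genes were called higher and 5.48% lower, 9.49% in all. The same 2 genes were called higher in PNU-282987 than in sham and 0 lower, where 2.58% of measured genes were called higher and 4.96% lower, 7.54% in all. Between PNU-282987 and excision 0 of 8 were called in either direction, where 3.9% of measured genes were called higher and 5.62% lower, 9.52% in all. The comparisons share libraries, and since the genes were chosen with these values in view the counts are a description.

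Set against each other within a library, inflammatory caspases took a small share of the counts throughout. Casp1 and Casp4 together gave 6 of 4071 counts over Casp1, Casp4, Casp6, Casp8 and Casp9 in sham, which is 0.147% (exact Clopper-Pearson 95% interval 0.0541% to 0.321%). They gave 118 of 3867 in excision, or 3.05% (2.53% to 3.64%), and 228 of 4342 in PNU-282987, or 5.25% (4.61% to 5.96%). The intervals of the 3 libraries did not overlap. The summed level of Casp6, Casp8 and Casp9 stayed at 104, 101 and 106 CPM, so the shares differed through Casp1 and Casp4. The shares depend on which caspases are counted: with Casp14 added they were 2.85% in excision and 4.74% in PNU-282987, and a wider set lowers them further.

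Levels of different genes were compared per kilobase of the principal GENCODE M21 transcript, whose models may differ from those the authors counted on. On that scale Pycard was the highest member in every library (44.1, 50.7 and 43.7 CPM per kb), followed by Casp8 (16.5, 16.8 and 16.2), Casp6 (15.1, 12.7 and 13.3) and Casp9 (10.1 in sham and 11.5 in PNU-282987, with excision near sham). With the length of all annotated exons, Casp6 stood at 3.95, 3.32 and 3.46, below Casp9 in all 3 libraries, below Gsdmd in sham and excision (4.52 and 5.83) and below Casp14 in PNU-282987 (5.0), so the place of Casp6 in the order is uncertain. Gsdmd stood at 6.0, 7.73 and 3.87 CPM per kb and Casp14 at 3.23, 3.13 and 5.13. Casp1 reached 0.0513, 1.78 and 3.37 and Casp4 0.0535, 0.357 and 0.574. In PNU-282987, the library with the most Casp1, its level per length was below those of Casp8 and Casp9 with either length, while against Casp6 it was lower with the principal transcript and close to it with all exons (3.37 against 3.46).

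Casp2, a caspase gene outside the 8, had 1851, 1866 and 2062 counts and was not called in any of the 3 comparisons. Casp12, an inflammatory-type caspase gene and the next gene after Casp4 on the chromosome, had 26, 44 and 50 counts. Excision exceeded sham 1.78-fold (1.07 to 3.01) and PNU-282987 exceeded it 1.93-fold (1.18 to 3.24), both under 2-fold. Further along, Pdgfd had 114, 13 and 92 counts and Dync2h1 305, 268 and 427. On the other side of Casp1, Gria4 had 1, 0 and 1, and Msantd4 had 897, 609 and 856. Of these 5 neighbours (order from RefSeq, GRCm38.p6), Casp12 was the one with both other libraries above sham.

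The genes that act before caspase-1 were mostly at low counts. Of 12 inflammasome sensor genes 6 reached 20 counts, with 1 called on each side in excision against sham (median log2 ratio 0.36, against -0.003 over all measured genes). Of all measured genes 4.01% were called higher and 5.48% lower in that comparison. Nlrp1b, a sensor that binds caspase-1 through its own CARD, had 47, 152 and 50 counts. It was 3.4-fold higher in excision than in sham (2.44 to 4.83) and near the sham level in PNU-282987 (1.07-fold, 0.704 to 1.63). In PNU-282987 against excision 2 sensor genes were called lower, Nlrp1b (3.18-fold, 2.3 to 4.47) and Naip6 (2.56-fold, 1.13 to 6.31). There 5.62% of all measured genes were called lower. Naip5, a flagellin receptor, had 44, 12 and 22 counts and was 3.49-fold lower in excision than in sham (1.81 to 7.25), and its relative Naip6 had 12, 22 and 9. Naip1 was the abundant one of this family at 1293, 1695 and 2196 counts, although Naip copies are similar enough to share reads. Nlrp3, the sensor of membrane damage, had 2, 1 and 0 counts, Aim2, the sensor of cytosolic DNA, had 2, 15 and 11, Nlrc4 had 8, 6 and 13, and Mefv had 0, 2 and 1. Aim2 was higher than in sham in both other libraries on counts under the minimum.

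Of the genes that license inflammasomes or rupture the membrane, those called in excision against sham were interferon-inducible GTPases. There 4 of 10 measured genes were called higher and 0 lower (median log2 ratio 0.46), where 4.01% of all measured genes were called higher and 5.48% lower. In PNU-282987 against excision 3 were called lower and 0 higher (median -0.26, against 0.008 over all measured genes), where 5.62% of all measured genes were called lower and 3.9% higher. Gm12250, which encodes the GTPase IRGB10, had 104, 1523 and 35 counts. It was 15.4-fold higher in excision than in sham (12.6 to 19.0) and 45.5-fold lower in PNU-282987 than in excision (32.6 to 65.6). The guanylate-binding protein genes Gbp3 (248, 1057 and 185 counts), Gbp7 (317, 1004 and 430) and Gbp2 (2093, 4176 and 2746) were also highest in excision. Gbp3 was 4.48-fold higher in excision than in sham (3.9 to 5.17) and 5.98-fold lower in PNU-282987 than in excision (5.11 to 7.03), and for Gbp7 the values were 3.33-fold (2.93 to 3.79) and 2.44-fold (2.18 to 2.74). Gbp2 was 2.1-fold higher in excision than in sham (1.99 to 2.21). In PNU-282987, Gm12250 was also 2.95-fold lower than in sham (2.0 to 4.47). These GTPases help open bacterial membranes to the caspase-11 pathway, and their order of libraries differed from that of Casp1 and Casp4, which were highest in PNU-282987. Txnip, which encodes a thioredoxin-binding protein, had 12646, 19537 and 15113 counts and was 1.63-fold above sham in excision (1.59 to 1.66). Nek7, the NLRP3 partner, had 2132, 1653 and 2091 counts, Ninj1, which ruptures the membrane after pore formation, had 635, 568 and 633, and the transcription factor gene Irf1 had 13565, 14606 and 14434.

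Among the cytokines that caspase-1 matures and their brakes, 1 of 4 measured genes was called, in excision against sham. In that comparison 9.49% of all measured genes were called. Il18 was abundant and close to level, with 5534, 5150 and 4907 counts. Il1b had 10, 12 and 2 counts, under the minimum in every library. The decoy receptor gene Il1r2 had 181, 361 and 204 counts and was 2.1-fold higher in excision than in sham (1.75 to 2.52). The antagonist gene Il1rn had 714, 741 and 1305 counts, 1.84-fold above sham in PNU-282987 (1.68 to 2.02), and Il18bp, which neutralises interleukin-18, had 85, 120 and 79. Of the other gasdermin genes 2 of 7 in the table reached 20 counts. Gsdma had 39, 15 and 34 counts, 2.47-fold lower in excision than in sham (1.33 to 4.83) and 2.17-fold higher in PNU-282987 than in excision (1.15 to 4.28), and Gsdme, another pore gene, had 26, 27 and 24.

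None of the measured genes in the apoptosome, IAP and executioner target lists was called. Of 17 measured genes of the apoptosome and mitochondrial release 0 were called in any of the 3 comparisons, with log2 ratios from -0.27 to 0.93 in excision against sham, from -0.68 to 0.30 in PNU-282987 against excision and from -0.32 to 0.45 in PNU-282987 against sham. Apaf1, the scaffold that activates caspase-9, had 655, 804 and 890 counts, and Cycs, cytochrome c, had 1780, 1976 and 1420. The caspase inhibitors of the IAP family had 0 of 5 measured genes called in each comparison, and Xiap, which blocks caspase-9, had 2801, 2611 and 2839 counts. The executioner targets, such as Parp1 (1526, 1351 and 1626 counts), had 0 of 7 called. With 9.49%, 9.52% and 7.54% of all measured genes called in excision against sham, PNU-282987 against excision and PNU-282987 against sham, counts of 0 in lists this short are near the background.

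In the death receptor and caspase-8 list 1 of 9 measured genes was called, and it was the same gene in each comparison. Of all measured genes 9.49% were called in excision against sham, 9.52% in PNU-282987 against excision and 7.54% in PNU-282987 against sham. A count of 1 of 9 is near these shares. Tnfsf10, which encodes the death ligand TRAIL, had 72, 614 and 308 counts. It was 8.97-fold higher in excision than in sham (7.02 to 11.6), 4.3-fold higher in PNU-282987 than in sham (3.32 to 5.64) and 2.09-fold lower in PNU-282987 than in excision (1.82 to 2.4). Tnfsf10 thus exceeded sham in both other libraries, as Casp1 did, but with excision the higher of the 2. Fadd, the adaptor that brings caspase-8 to receptors, had 914, 761 and 969 counts, and Cflar, the caspase-8 inhibitor FLIP, had 1736, 1907 and 1664. Of the necroptosis genes, which act where caspase-8 is blocked, Zbp1, a sensor of Z-form nucleic acid, had 593, 3798 and 278 counts, 6.74-fold higher in excision than in sham (6.18 to 7.36) and 14.3-fold lower in PNU-282987 than in excision (12.6 to 16.2). It was also 2.12-fold lower in PNU-282987 than in sham (1.84 to 2.45). The kinase gene Ripk3 (172, 231 and 128 counts) and its target Mlkl (74, 101 and 76 counts) were within 2-fold.

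**Figure D3:**
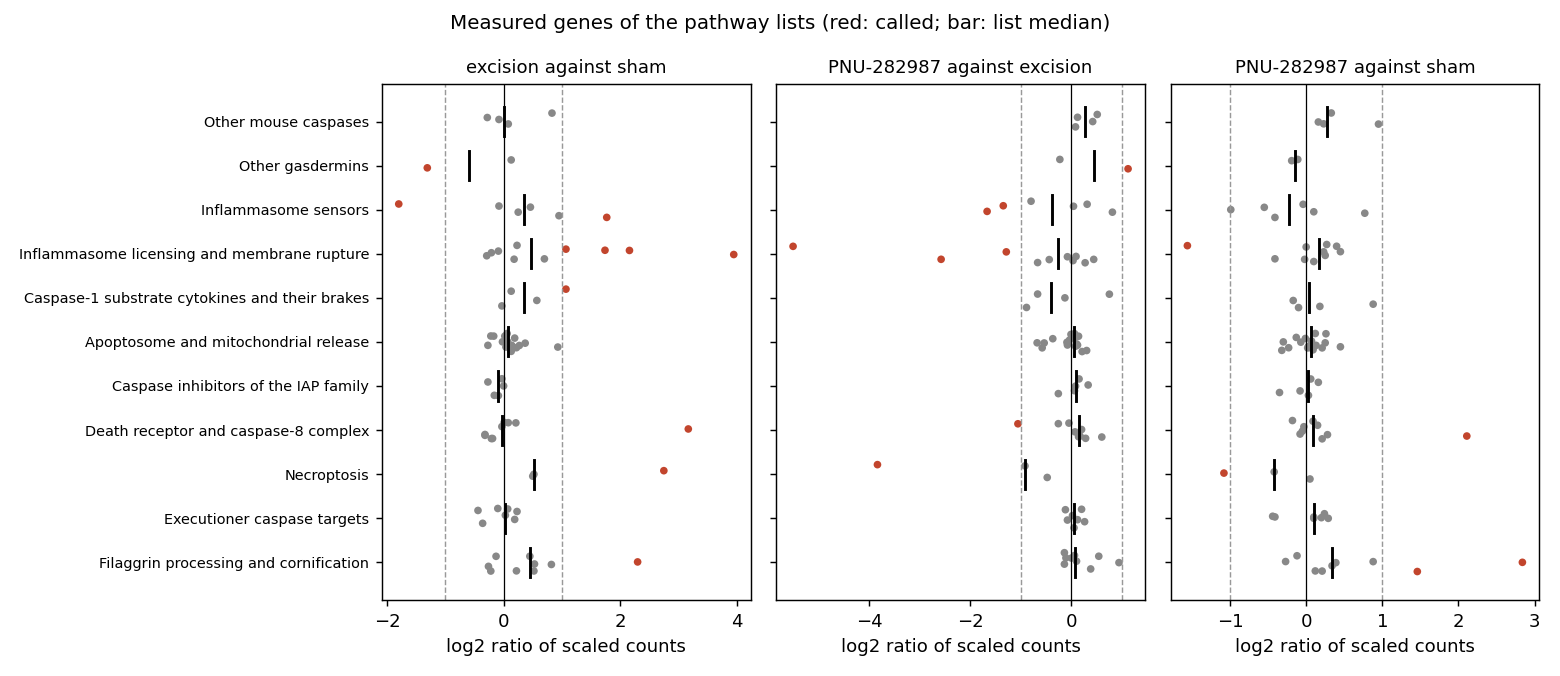
Log2 ratio of scaled counts for each measured gene of the 11 pathway lists in the 3 comparisons, with red points for called genes, black bars for list medians and dashed lines at 2-fold; the panels have different horizontal ranges. Called genes sit mainly among the inflammasome sensors, the licensing GTPases, Tnfsf10 and Zbp1, while every point of the apoptosome, IAP and executioner target lists lies between the dashed lines.

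Over the 11 lists together, 9 of 76 measured genes were called higher in excision than in sham and 2 lower, 1 higher and 7 lower in PNU-282987 than in excision, and 3 higher and 2 lower in PNU-282987 than in sham. In the same order, 4.01% and 5.48%, 3.9% and 5.62%, and 2.58% and 4.96% of all measured genes were called. The medians of the log2 ratios were 0.08, 0.05 and 0.09.

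Beside Casp14, the list for filaggrin processing and cornification had 9 measured genes, of which 1 was called higher in excision than in sham and 2 in PNU-282987 than in sham. Of all measured genes 4.01% and 2.58% were called higher in these comparisons. Padi1, which encodes a peptidylarginine deiminase that modifies filaggrin, had 23, 108 and 164 counts, 4.94-fold (3.13 to 8.12) and 7.17-fold (4.62 to 11.6) above sham. Cdsn, the gene of corneodesmosin, an adhesion protein of cornified cells, had 221, 301 and 605 counts and was 2.75-fold higher in PNU-282987 than in sham (2.36 to 3.23). Cdsn and Casp14 were both highest in PNU-282987. Flg, the gene of the classic caspase-14 substrate filaggrin, had 0, 0 and 1 counts. The protease gene Asprv1, which also processes filaggrin, was abundant at 339507, 374608 and 391446 counts, and the epidermal keratin genes Krt1 (203, 279 and 264 counts) and Krt10 (399, 325 and 364) were within 2-fold. The 7 lid skin markers in the table summed to 15.8, 16.8 and 17.0 CPM, nearly all of it Krt1 and Krt10. The other 5, each under 20 counts, had 16, 19 and 34 counts together, highest in PNU-282987 like Casp14, and their part in the Casp14 values was not tested.

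Markers of other cells differed between the same libraries as Casp1 and Casp4. The 15 macrophage and monocyte markers, with most counts from Ctss and Cd68, summed to 48.9 CPM in sham, 96.4 CPM in excision and 55.0 CPM in PNU-282987. The 6 general leukocyte markers, led by Coro1a and Laptm5, summed to 8.32, 18.5 and 7.0 CPM, and Ptprc, which marks all leukocytes, had 6, 36 and 17 counts. The 9 T and NK cell markers in the table summed to 0.256, 5.95 and 0.85 CPM, with 4, 0 and 1 of them at 0. The 3 sums were highest in excision, and in PNU-282987 they were above sham for macrophages and for T and NK cells and below it for general leukocytes. Of single markers in PNU-282987 against sham, Ptprc (2.85-fold, 1.07 to 8.83) and Gzma (4.69-fold, 1.31 to 25.5) were called higher, and 2 of 15 macrophage markers were called lower and 0 higher. Among the latter, Cd68 (1.52-fold, 1.35 to 1.71) and C1qa (1.75-fold, 1.32 to 2.33) were above sham by less than 2-fold. The sum of the 11 markers of conjunctiva, goblet cells and glands had the order of Casp1, at 2250, 3770 and 5820 CPM, with 2, 2 and 0 of them at 0, and most of these counts came from the keratin genes Krt13 and Krt4. All 11 were called higher in PNU-282987 than in sham, but in excision against sham 4 were called higher and 1, Spdef (22, 4 and 94 counts), lower. The goblet cell mucin gene Muc5ac had 1, 11 and 2980 counts. Neutrophil markers summed to 76.6, 35.6 and 63.2 CPM, most of it from Ltf (920, 995 and 1486 counts) and S100a9 (718, 34 and 617 counts). Of 8 measured neutrophil markers 7 were called lower in excision than in sham and 6 lower in PNU-282987 than in sham, such as Mpo (515, 112 and 131 counts). Beside these marker counts, 4.01% of all measured genes were called higher and 5.48% lower in excision against sham. In PNU-282987 against sham the shares were 2.58% and 4.96%. Lens markers (575, 16.3 and 531 CPM) were lowest in excision, as were those of retina (13.8, 3.1 and 22.9 CPM), corneal endothelium (700.0, 150.0 and 412 CPM) and keratocytes (1910, 1280 and 1400 CPM). Red blood cell markers summed to 71.8, 17.2 and 9.61 CPM, the opposite order to Casp1. The part of these cells in the Casp1 and Casp4 values was not tested.

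**Figure D4:**
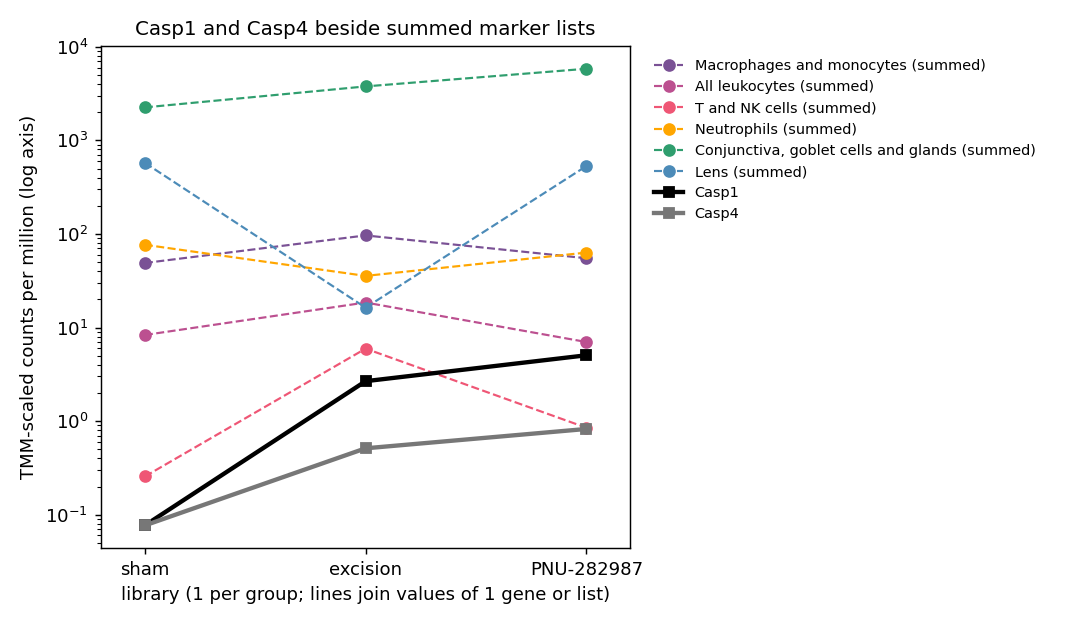
Levels of Casp1 and Casp4 (solid lines) beside the summed levels of 6 marker lists (dashed lines) in the 3 libraries, in TMM-scaled CPM on a log axis; lines join the values of 1 gene or list and carry no time order. Casp1 and Casp4 increase from left to right together with the conjunctiva, goblet cell and gland list, whereas macrophage, leukocyte and T and NK cell lists peak in excision.

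No gene among those compared lay near Casp1 over the 3 libraries, but genes with a count of 0 in any library were left out. Among 11022 other named genes with at least 100 counts in 1 library, likeness was measured as the distance between the pairs of log2 ratios of excision and of PNU-282987 to sham. The gene nearest to Casp1, Rhox4a, was 3.05 log2 units away, the next were Agr2 at 3.7 and Serpinb3a at 3.74, and 0 genes lay within 0.5. Nearest to Casp4 were the protease inhibitor gene Serpinb3a (256, 1308 and 2761 counts, distance 0.31) and the keratin genes Krt17 (93, 397 and 907 counts, distance 0.58) and Krt4 (3013, 14142 and 21643 counts, distance 0.72). By contrast 8084 genes lay within 0.5 of Casp8 and 7438 within 0.5 of Pycard, 1953 within 0.5 of Casp14 and 932 within 0.5 of Gsdmd, so their nearest genes are not singled out. With 3 libraries this likeness rests on 2 ratios per gene that share the sham library, and the 3 counts of Casp1 and Casp4 in sham make their own positions imprecise. The interval of Casp1 in excision against sham, 11.5- to 171-fold, spans far more than 0.5 log2 units. The distances therefore cannot tell how rare the Casp1 values are.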

How the data were processed

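Per the labels, RNA of mouse cornea was extracted with TRIzol and made into libraries with the VAHTS Universal V6 kit. Read counts per gene, as whole numbers, were used as the authors deposited them. HTSeq and R 3.2.0 appear in the submitters' processing notes. Aligner, genome build, annotation, strand setting and the treatment of shared reads were not given in the sources used here. Columns were matched to samples by title and to groups by the treatment label.

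Counts were scaled with TMM factors (1.0358, 0.9849 and 0.9803 in the order sham, excision, PNU-282987) from edgeR 4.0.16 in R 4.3.3. DESeq2 1.42.0 gave the size factors of 1 alternative. The remaining steps used Python 3.11.15, NumPy 2.4.6, pandas 2.3.3, SciPy 1.17.1 and matplotlib 3.10.9. A gene counted as measured once any library held 20 or more of its counts. A count of 0 was set to 3 counts for a ratio, and no ratio was formed where both libraries had 3 counts or fewer. The calling scheme was tried on simulated data that held counting error only, so the trial does not cover differences between animals or the TMM scaling. The members, 11 pathway lists and 12 marker lists were chosen with earlier results of these data known. All members were named, as were up to 4 called genes of each pathway list and every gene of lists of 5 or fewer. Further uncalled genes were named for their roles, with values seen. For likeness, gene models, pseudogenes and genes with a count of 0 in a library a ratio needed were left out, and the 3 nearest genes are named for Casp1 and Casp4. Promoters came from the RefSeq table and lengths from GENCODE M21, matched by symbol. Some genes of the lists are not analysed here, and some results, among them the planned share over a wider set of caspases, which is lower by construction, are not reported here.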

Additional observations from a re-analysis of the deposited data

How the results depend on the processing

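No paired analysis was possible because each group had 1 library, and for the same reason no library could be left out. Under the 4 other scalings, Casp1 and Casp4 remained the members called higher than sham in both excision and PNU-282987. Scaling to total counts or to the corneal epithelium list added Gsdmd as called lower in PNU-282987 than in excision (1 member, at ratios of 0.498 and 0.428). The epithelium scaling moved the median log2 ratio of all genes to -0.22 in that comparison and to -0.17 in PNU-282987 against sham. Of 96 recomputed member ratios 83 stayed inside the original counting interval and 13 did not. These scalings moved ratios by much less than 2-fold, so no called ratio could change direction. For the same reason Casp1 and Casp4 lay too far from sham to lose their calls.

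With a 1.5-fold threshold, Casp1 and Casp14 were higher (2 members) and Gsdmd lower (1) in PNU-282987 than in excision, and against sham Gsdmd was lower (1) and Casp1, Casp4 and Casp14 higher (3). With a minimum of 100 counts Casp4 dropped out, leaving 1 member called against sham in each comparison.

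Genes called higher and lower in excision against sham numbered 1166 and 1281 at 1.5-fold, 288 and 422 at 3-fold, and 237 and 313 with a minimum of 100 counts, and 948 were higher with no minimum. In PNU-282987 against excision they numbered 1081 and 1582, 283 and 389, and 224 and 287, with 1240 lower without a minimum. In PNU-282987 against sham they numbered 712 and 1376, 161 and 293, and 127 and 199, with 649 higher and 1080 lower without a minimum.

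For the pathway lists, settings added after seeing the data gave 14 genes higher in excision than in sham with no minimum, and 1 lower at 3-fold and 0 lower with a minimum of 100. For PNU-282987 against excision they gave 0 higher under the epithelium scaling, a 99% interval, 3-fold or a minimum of 100, 4 higher and 12 lower at 1.5-fold, 2 higher with no minimum and 4 lower at 3-fold. For PNU-282987 against sham they gave 7 higher at 1.5-fold, 5 higher and 4 lower with no minimum, and 0 lower at 3-fold. A threshold or minimum changes such counts by construction. Depth limits Casp1 and Casp4 in sham most, where 3 counts equal 0.0768 CPM.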
